A study of Homo sapiens with 24 samples.

Results

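The 10 genes described here encode proteins of the junctions that hold epithelial cells together. CDH1, CTNNB1 and CTNND1 belong to the adherens junction, CLDN3, CLDN4, CLDN7, OCLN and TJP1 to the tight junction, DSP to the desmosome, and EPCAM is an adhesion molecule of the epithelial surface. They were taken by gene symbol from the count tables, and all 10 were present among 26364 genes. The cells were T-47D, a luminal breast carcinoma line that depends on estrogen receptor alpha (ER, encoded by ESR1). Clones carried WT ESR1 or the ligand-independent mutation Y537S or D538G, with 2 clones for each genotype. All cells were kept in hormone-deprived medium, transfected at 10 nM and harvested after 24 h. WT cells received a mimic negative control or the mimic of 1 of the miRNAs miR-181c-5p, miR-301b-3p and miR-331-3p. Y537S cells received the mimic negative control, the miR-301b-3p or miR-331-3p mimic, an inhibitor negative control or an inhibitor of let-7f-5p. D538G cells received the mimic negative control, the mimic of miR-181c-5p or that of miR-301b-3p. A mimic is a synthetic RNA duplex that works like the mature miRNA, whereas an inhibitor pairs with it and keeps it from its targets. Each clone gave 1 library per condition, which made 24 libraries in 12 groups of 2. With 2 clones a genotype, an effect of the mutation and a trait of the clones cannot be told apart. The p-values measure only the spread between clones, except in fits that compare libraries within a clone.

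The libraries held 31379962 to 50526442 counts (median 39878595), and the 10 genes were covered by 875 to 126385 counts each in every library. The libraries carried the markers of luminal mammary epithelium. KRT8 was at 2243 to 5032 CPM (counts scaled to the library total with TMM factors over the 24 libraries, written CPM throughout), KRT18 at 1031 to 2151 CPM and GATA3 at 1363 to 1721 CPM. ESR1 was at 71.4 to 291 CPM. KRT5, KRT14, COL1A2, PDGFRB, PECAM1, CDH5 and PTPRC, which mark basal, stromal, endothelial and blood cells, had at most 12 counts in any library. Of the other markers of these cells, COL1A1 was at 47.3 to 81.0 CPM, COL3A1 at no more than 4.86 CPM and TP63 at no more than 8.25 CPM.

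In an adherens junction, E-cadherin molecules of neighbouring cells bind each other, and their tails hold beta-catenin and p120-catenin, which couple them to actin and keep them at the membrane. In a tight junction, claudins and occludin span the membrane and seal the space between cells, while ZO-1 ties them to the cytoskeleton. In a desmosome, desmoplakin links the membrane plaque to keratin filaments. Luminal breast carcinoma cells usually keep these genes on, and their loss is a hallmark of the epithelial-mesenchymal transition.

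A miRNA pairs with target transcripts mainly through its seed, bases 2 to 8. The mature sequences of the 4 miRNAs are shown because their seeds define which junction transcripts could be direct targets. They were taken from RefSeq (GRCh38.p14), are written 5′ to 3′ and have the seed in capitals.
hsa-miR-301b-3p: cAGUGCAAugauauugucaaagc
hsa-miR-331-3p: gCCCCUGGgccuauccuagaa
hsa-miR-181c-5p: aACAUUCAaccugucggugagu
hsa-let-7f-5p: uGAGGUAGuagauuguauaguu
The 4 seeds differ from each other. The complements of the 7 seed bases were searched for on the transcript strand. No 3′UTR of the 10 genes held the complement of the miR-301b-3p or miR-331-3p seed. Among 18645 genes with an annotated 3′UTR, 14.3% and 14.1% held these. The miR-181c-5p complement was found in 2 of the 10 genes (19.5% of all genes) and that of let-7f-5p in 1 (9.86% of all genes). Windows around these matches on the GRCh37 plus strand, which is the strand of all 3 genes, have the match in capitals.
CTNND1, miR-181c-5p match at chr11:57586131-57586137: ttcttaaaaatTGAATGTggctgaagttg
OCLN, miR-181c-5p match at chr5:68853650-68853656: tgagctgattgTGAATGTcctaaccctgt
CDH1, let-7f-5p match at chr16:68868835-68868841: ttgaggtgggtCTACCTCatctctgaaaa
All 3 lie in the 3′UTR of the transcript used for the gene, and only the CDH1 match is followed by an A, a base that favours repression. A match is a letter match, and binding was not measured.

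On the scale of CPM per kilobase of transcript, which allows genes to be compared, CDH1 had the highest median over the 24 libraries, at 283.5 (178 to 399). CLDN3 followed at 237.0 (119 to 379), DSP at 233 (191 to 379) and CLDN4 at 227 (146 to 404), and the ranges of these 4 genes overlapped widely. CTNNB1 was at 144 (127 to 191) and EPCAM at 115 (92.8 to 128), and each overlapped its neighbour above. CLDN7 was at 59.6 (44.3 to 105), TJP1 at 19.6 (13.2 to 27.6), OCLN at 5.77 (4.03 to 7.76) and CTNND1 at 4.33 (3.62 to 5.37). CLDN7 and TJP1 did not overlap their neighbours below in this order, except that the top of CLDN7 reached the EPCAM range, while OCLN and CTNND1 overlapped each other. EPCAM was the steadiest of the 10, its highest library being 1.38 times its lowest, and CLDN3 the most variable, at 3.18 times.

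**Figure D1:**
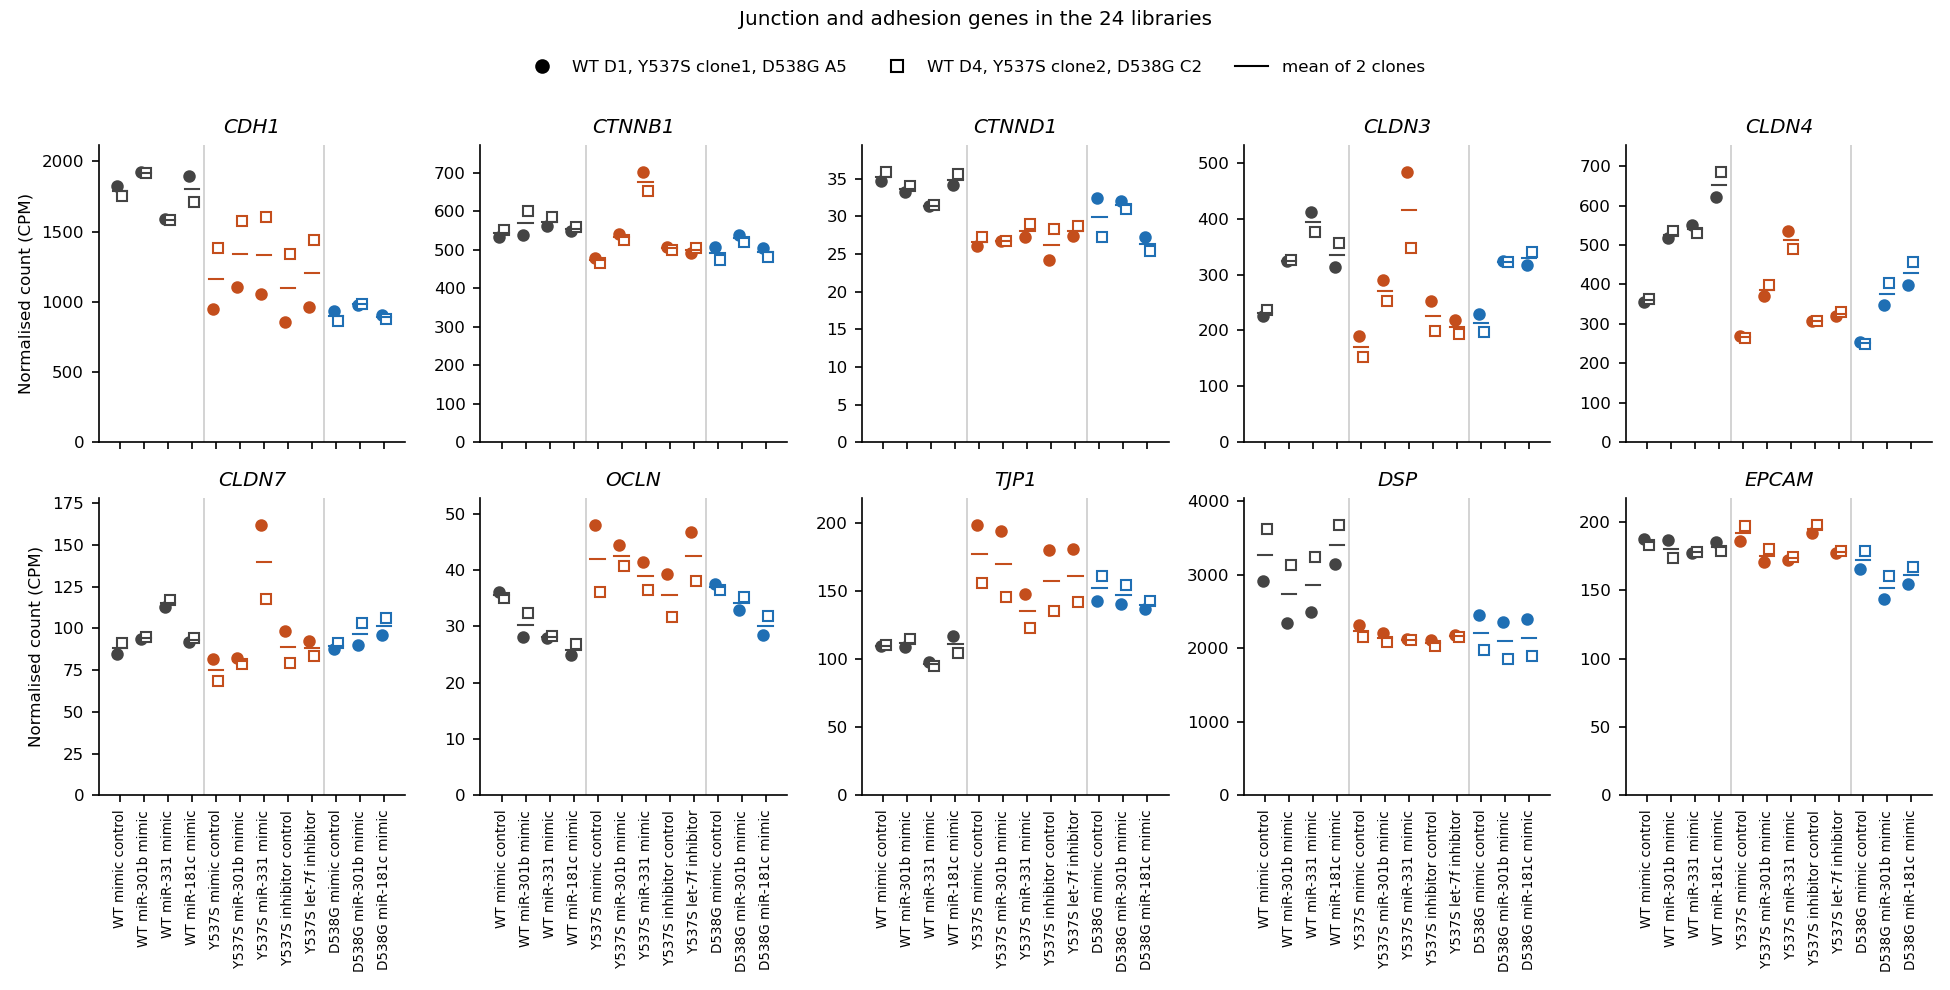
Normalised counts (CPM, linear axis from 0) of the 10 genes in each of the 24 libraries, by genotype (grey WT, orange Y537S, blue D538G) and treatment. Filled circles and open squares are the 2 clones of a genotype and bars their mean. CDH1 lies at 1583 to 1922 CPM in WT and 859 to 1607 CPM in the mutants, and CLDN3 and CLDN4 are lowest in the mimic control libraries of each genotype that received mimics.

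The first question was how the 10 genes differed between mutant and WT cells given the mimic negative control. Most of the 10 genes that were called were lower in the mutants. In Y537S cells 5 genes were lower and 1 higher, and in D538G cells 3 were lower and 1 higher, at an adjusted p under 0.05 (edgeR, Benjamini-Hochberg over all genes tested, as throughout). These are 6 and 4 of 10 genes, beside 29.0% and 38.9% of all genes tested. Over all genes, 2464 were higher and 1914 lower in Y537S, and 3050 higher and 2768 lower in D538G cells. Without WT clone D1 or D4 the Y537S count was 2 or 1. The median log2 difference of the 10 genes was -0.29 in Y537S and -0.13 in D538G cells, with medians over all genes of -0.0026 and -0.00078. In bulk RNA, fewer cells expressing a gene and less RNA per cell cannot be told apart.

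CDH1, which encodes E-cadherin (chr16:68771195-68869440, plus strand), was at 1825 and 1754 CPM in WT clones D1 and D4. It was at 937 and 864 CPM in D538G clones A5 and C2, and at 946 and 1385 CPM in Y537S clones 1 and 2. All mutant libraries lay below the WT libraries, and Y537S clone 1 stood with the D538G clones while clone 2 lay between them and WT. The log2 difference was -0.99 ± 0.06 (SE, n = 2 against 2 clones) in D538G (edgeR adjusted p = 1.22e-05) and -0.59 ± 0.16 in Y537S (adjusted p = 0.0335). The Y537S difference did not pass by DESeq2 (adjusted p = 0.0965), nor without WT clone D1 (adjusted p = 0.117) or D4 (adjusted p = 0.0864). The gap between the Y537S clones was present in all 5 of their conditions, clone 2 being 1.43 to 1.56 times clone 1. In D538G cells CDH1 was also at 0.512 of the WT geometric mean with the miR-301b mimic and 0.495 with the miR-181c mimic.

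The catenins differed less. CTNND1, encoding p120-catenin (chr11:57520715-57587018, plus strand), was at 34.7 and 35.8 CPM in WT, 26.0 and 27.2 CPM in Y537S and 32.4 and 27.3 CPM in D538G clones. It was lower in Y537S by -0.38 ± 0.11 (log2, edgeR adjusted p = 0.0340), a call that was lost without either WT clone (adjusted p = 0.167 without D1 and 0.207 without D4), and the D538G value was -0.24 ± 0.11 (adjusted p = 0.113). The row of its readthrough with TMX2 was at 0 in all 24 libraries, and how reads shared by both were assigned is not given in the sources used here. CTNNB1, encoding beta-catenin (chr3:41236232-41301587, plus strand), was at 534 and 551 CPM in WT, 478 and 466 CPM in Y537S and 507 and 474 CPM in D538G clones, and neither log2 difference (-0.17 ± 0.07 and -0.14 ± 0.06) passed the test.

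Of the claudins, which set the tightness and ion selectivity of the seal, CLDN4 (chr7:73213872-73247020, plus strand) was at 357 and 362 CPM in WT, 268 and 263 CPM in Y537S and 255 and 248 CPM in D538G clones. Its log2 difference was -0.41 ± 0.07 in Y537S (edgeR adjusted p = 0.00602) and -0.51 ± 0.06 in D538G (adjusted p = 0.000283). Without WT clone D1 or D4 the Y537S call was lost (adjusted p = 0.0585 and 0.0658). CLDN3 (chr7:73183327-73184600, minus strand) was at 226 and 237 CPM in WT, 190 and 152 CPM in Y537S and 229 and 197 CPM in D538G clones. It was lower in Y537S (-0.41 ± 0.11, adjusted p = 0.0286; 0.0931 without WT D1 and 0.139 without D4). In D538G its value was -0.11 ± 0.08 (adjusted p = 0.304), which became -0.30 with an adjusted p of 0.00511 after removal of a trend with the GC content of transcripts. CLDN7 (chr17:7163222-7167302, minus strand) was at 84.8 and 91.1 CPM in WT, 81.9 and 68.3 CPM in Y537S and 87.4 and 91.4 CPM in D538G clones. The Y537S libraries lay below WT (-0.20 ± 0.11, adjusted p = 0.207) and the D538G libraries overlapped it (0.03 ± 0.08), and neither passed.

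TJP1, encoding the scaffold ZO-1 (chr15:29991571-30261118, minus strand), went the other way. It was at 109 and 110 CPM in WT, 198 and 156 CPM in Y537S and 143 and 161 CPM in D538G clones, with no overlap. The log2 difference was 0.72 ± 0.11 in Y537S (edgeR adjusted p = 0.00399) and 0.47 ± 0.08 in D538G (adjusted p = 0.00169). OCLN, encoding occludin (chr5:68788119-68853931, plus strand), was at 36.1 and 35.0 CPM in WT, 48.0 and 36.0 CPM in Y537S and 37.6 and 36.5 CPM in D538G clones. Neither log2 difference passed (0.27 ± 0.14 and 0.06 ± 0.09), although the D538G libraries lay just above WT. An unprocessed pseudogene, OCLNP1 (chr5:70370052-70389020, minus strand), has no row in the tables, so that reads shared with it cannot be told apart from OCLN reads.

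DSP, encoding desmoplakin (chr6:7541571-7586947, plus strand), was at 2918 and 3626 CPM in WT, 2311 and 2159 CPM in Y537S and 2449 and 1973 CPM in D538G clones. It was lower by -0.52 ± 0.11 in Y537S (edgeR adjusted p = 0.0143, or 0.120 without WT clone D4) and by -0.56 ± 0.12 in D538G (adjusted p = 0.00452). The WT and D538G clones differed in DSP in every condition, D4 being 1.17 to 1.33 times D1 and A5 1.24 to 1.27 times C2, whereas Y537S clone 2 was at 0.934 to 0.998 of clone 1. EPCAM (chr2:47572297-47614740, plus strand) was at 188 and 183 CPM in WT, 186 and 197 CPM in Y537S and 165 and 179 CPM in D538G clones. The D538G libraries lay below WT and the Y537S libraries overlapped it, and neither log2 difference passed (-0.10 ± 0.07 and 0.08 ± 0.08).

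The order of mutant and WT levels was followed through the mimics that both genotypes received. Y537S and WT libraries of CTNND1, TJP1 and DSP did not overlap in any of 3 conditions. Their ratios of geometric mean CPM were 0.754 to 0.895, 1.40 to 1.60 and 0.687 to 0.790. For CLDN3 and CLDN4 they did not overlap with the mimic control (ratios 0.734 and 0.739) or the miR-301b mimic (0.832 and 0.731) but did with the miR-331 mimic (1.04 and 0.948). CLDN7 did not overlap in any of the 3 conditions either, but was below WT with the mimic control and the miR-301b mimic (0.851 and 0.852) and above WT with the miR-331 mimic (1.20). CTNNB1 was below WT with the mimic control (0.871) and above WT, without overlap, with the miR-331 mimic (1.18). D538G and WT libraries of the following genes did not overlap in any of 3 conditions. The ratios were 0.495 to 0.512 for CDH1, 0.656 to 0.713 for CLDN4, 0.754 to 0.938 for CTNND1 and 0.842 to 0.927 for EPCAM. They were 0.891 to 0.930 for CTNNB1, 1.04 to 1.17 for OCLN and 1.26 to 1.38 for TJP1. Of these, CTNND1, EPCAM, CTNNB1 and OCLN did not pass the D538G test with the mimic control (edgeR adjusted p 0.113 to 0.620). For neither mutant was the share of all genes without overlap counted, and the conditions of a genotype come from the same 2 clones.

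**Figure D2:**
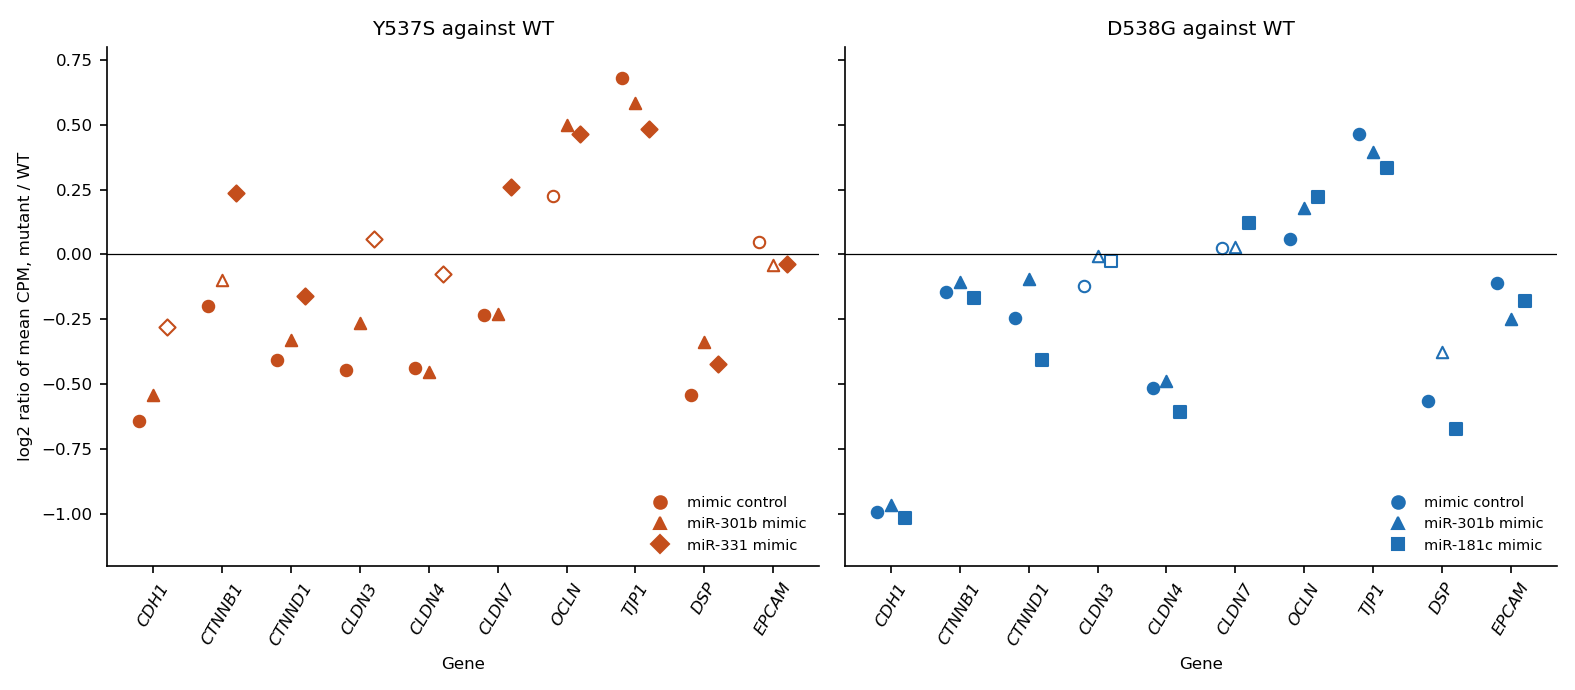
log2 ratio of geometric mean CPM in Y537S (left) or D538G (right) over WT cells given the same oligonucleotide, for the 10 genes. Each symbol is the mean log2 CPM of 2 mutant libraries minus that of 2 WT libraries. Open symbols mark pairs of groups whose libraries overlap. CDH1 lies near -1 in D538G cells in all 3 conditions, and the Y537S values of CLDN3, CLDN4, CLDN7 and CTNNB1 lie higher with the miR-331 mimic than with the mimic control.

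The second question was how the genes responded to each oligonucleotide against its own negative control in the same 2 clones. CLDN4 and CLDN3 were called most often. Over 8 comparisons of 10 genes, 19 of 80 changes were called, 16 higher and 3 lower. CLDN4 rose in 7 comparisons, CLDN3 in 6 and CLDN7 in 2, CTNNB1 rose in 1, OCLN fell in 2 and CDH1 fell in 1. CTNND1, EPCAM, TJP1 and DSP were called in none. With the clone as a block, which compares treated and control libraries within each clone, 35 of 80 were called, 23 higher and 12 lower. Such a fit takes out the difference between clones and leaves little spread of its own to each gene. Its p-values rest largely on the spread estimated over all genes, and very small ones do not stand for more replication. These included CLDN3 in 8 comparisons (7 higher), CLDN4 in 7, CDH1 and OCLN in 4 each, CLDN7 and EPCAM in 3 each, and CTNNB1, TJP1 and DSP in 2 each. The mimic comparisons of a genotype share their control libraries, so their values are not independent of each other.

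With the miR-301b mimic, 1 gene was called in Y537S cells (3.57% of all genes tested), 2 in D538G cells (11.8%) and 2 in WT cells (8.5%). The blocked fit called 5, 3 and 3 of the 10, beside 38.4%, 33.3% and 28.2% of all genes. With the miR-331 mimic, 4 genes were called in Y537S (33.0%) and 5 in WT cells (24.8%), and the blocked fit called 6 and 7 (60.7% and 37.0%). With the miR-181c mimic, 2 genes were called in D538G (9.52%) and 3 in WT cells (16.4%), and the blocked fit called 4 and 3 (29.3% and 27.9%). The let-7f inhibitor gave no call among the 10 or among all genes (0.0%) by edgeR, none of the 10 had an unadjusted p under 0.05, and DESeq2 called 0 of the 10 and 79 of all genes. With the clone as a block, 4 of the 10 were called for the inhibitor, beside 11.2% of all genes. The median log2 change of the 10 genes ranged from -0.09 (miR-331 mimic in WT) to 0.16 (miR-331 mimic in Y537S), and that of all genes stayed within -0.01 to 0.01.

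**Figure D3:**
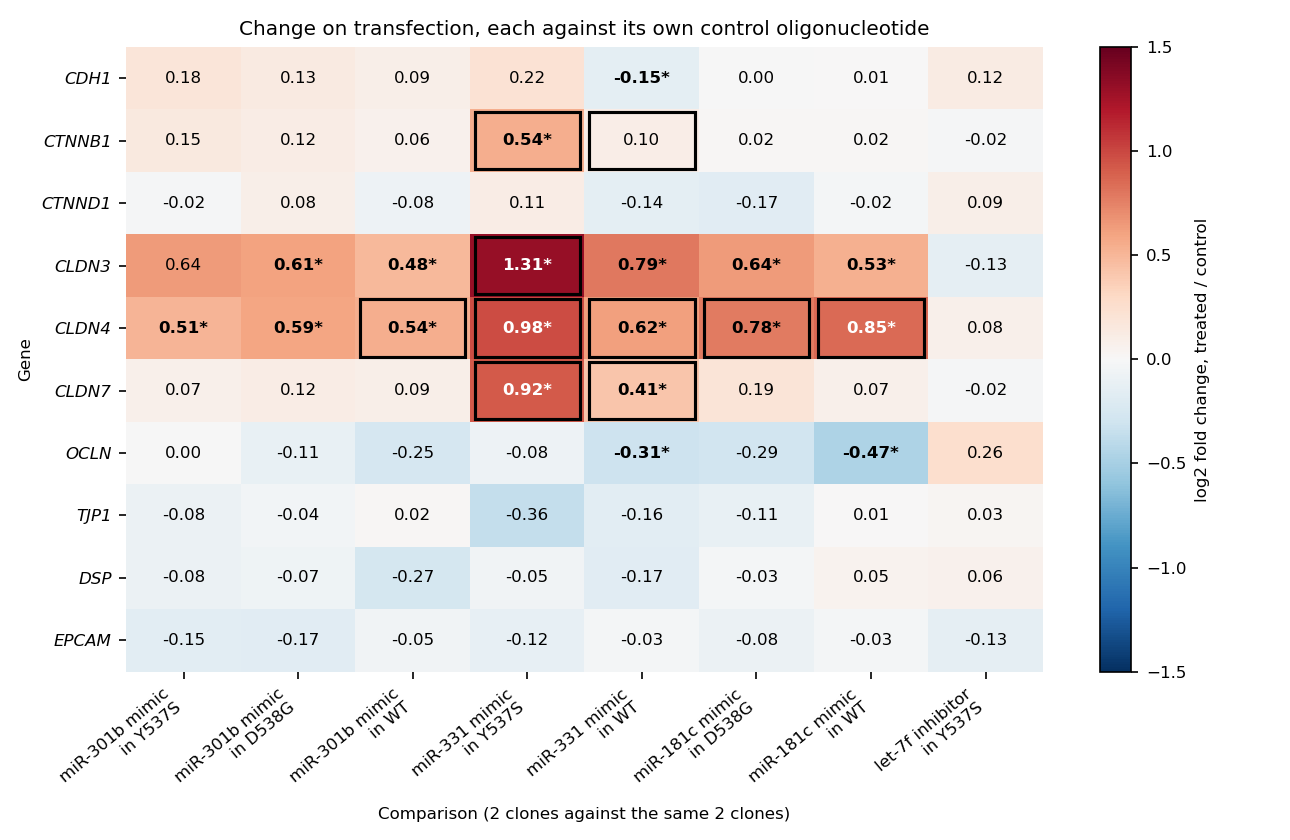
log2 fold change of the 10 genes (rows) in the 8 treatment comparisons (columns), each over the matching negative control in the same 2 clones. Bold values with an asterisk passed an edgeR adjusted p under 0.05 and black frames mark changes that pass after removal of the GC trend. CLDN3 and CLDN4 are positive in all 7 mimic comparisons, and CLDN3 reaches 1.31 with the miR-331 mimic in Y537S cells.

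CLDN3 showed the largest change among the 10 genes. In Y537S cells given the miR-331 mimic it went from 190 to 483 CPM in clone 1 and from 152 to 348 CPM in clone 2, a log2 change of 1.31 ± 0.19 or 2.48-fold (edgeR adjusted p = 0.00808). In WT cells the same mimic took it from 226 to 412 CPM in D1 and from 237 to 376 CPM in D4 (0.79 ± 0.06, adjusted p = 7.36e-05). The treated libraries lay above the controls in both. With the miR-301b mimic it was at 324 and 326 CPM in WT (0.48 ± 0.07, adjusted p = 0.00725), at 324 and 322 CPM in D538G (0.61 ± 0.09 over 229 and 197 CPM, adjusted p = 0.00607) and at 290 and 252 CPM in Y537S cells. The Y537S value, 0.64 ± 0.13, missed the threshold (adjusted p = 0.0560) and passed with the clone as a block (adjusted p = 9.1e-21). With the miR-181c mimic CLDN3 was at 316 and 341 CPM in D538G (0.64 ± 0.09, adjusted p = 0.00431) and at 314 and 356 CPM in WT cells (0.53 ± 0.08, adjusted p = 0.00212).

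CLDN4 rose in all 7 mimic comparisons. In Y537S cells it went from 268 and 263 CPM to 536 and 491 CPM with the miR-331 mimic (0.98 ± 0.09, edgeR adjusted p = 0.00606) and to 372 and 398 CPM with the miR-301b mimic (0.51 ± 0.08, adjusted p = 0.0386). The second call was lost when any 1 of its 4 libraries was left out (adjusted p 0.0533 to 0.127). In WT cells it went from 357 and 362 CPM to 551 and 531 CPM with miR-331 (0.62 ± 0.05, adjusted p = 0.000102) and to 518 and 535 CPM with miR-301b (0.54 ± 0.07, adjusted p = 0.00433). The largest WT value was that of the miR-181c mimic, at 622 and 684 CPM (0.85 ± 0.07, adjusted p = 0.000110). In D538G cells the miR-181c mimic took it from 255 and 248 CPM to 400 and 458 CPM (0.78 ± 0.08, adjusted p = 0.00173) and miR-301b to 349 and 404 CPM (0.59 ± 0.09, adjusted p = 0.00636). Treated and control libraries did not overlap in any of these.

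CLDN7 rose with the miR-331 mimic in both genotypes tested. It went from 81.9 and 68.3 CPM to 162 and 117 CPM in Y537S (0.92 ± 0.18, edgeR adjusted p = 0.0158) and from 84.8 and 91.1 CPM to 113 and 117 CPM in WT cells (0.41 ± 0.07, adjusted p = 0.00167). With miR-301b and miR-181c its log2 changes were 0.07 to 0.19 and did not pass, although the D538G change with miR-181c did with the clone as a block (0.19 ± 0.07, adjusted p = 0.0204). CLDN7 overlaps ELP5 on the opposite strand by its last bases and a readthrough gene on its own strand, and the strand setting of the counting is not given in the sources used here. Within single clones, CLDN3, CLDN4 and CLDN7 were each higher with the mimic in 14 of 14 pairs of libraries, by log2 changes of 0.46 to 1.35, 0.45 to 1.00 and 0.0034 to 0.98. These pairs share control libraries within a clone. Genes within 1 point of the GC content of each claudin also rose in the 7 mimic comparisons. Their median changes were 0.38 to 0.72 for CLDN3, 0.25 to 0.46 for CLDN4 and 0.11 to 0.31 for CLDN7. For CLDN7 with miR-301b and miR-181c these medians were 0.11 to 0.14.

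**Figure D4:**
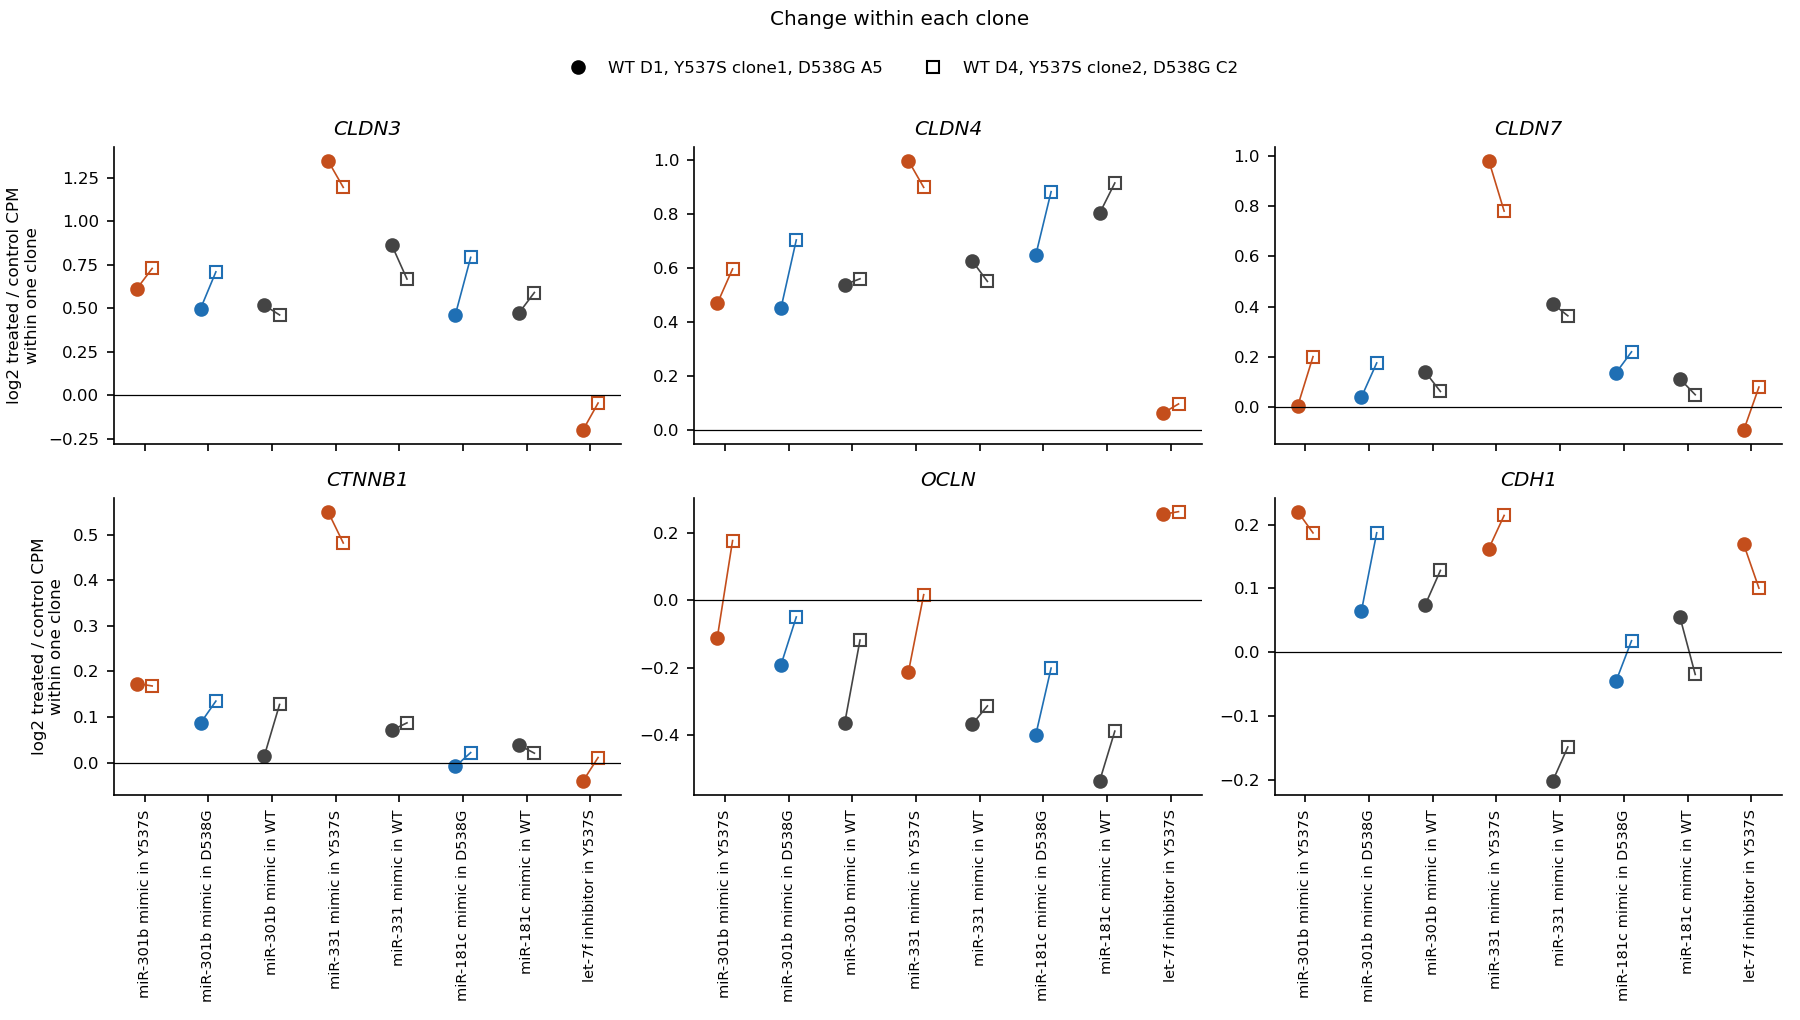
log2 ratio of treated over control CPM within each clone for CLDN3, CLDN4, CLDN7, CTNNB1, OCLN and CDH1 (panels, each with its own vertical scale) in the 8 treatment comparisons. Filled circles and open squares are the 2 clones and a line joins them. The 2 clones lie on the same side of 0 for CLDN3 and CLDN4 in all 8 comparisons and on opposite sides for OCLN with the miR-301b and miR-331 mimics in Y537S cells.

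OCLN went the other way. With the miR-181c mimic it fell in WT cells from 36.1 and 35.0 CPM to 24.9 and 26.8 CPM (-0.47 ± 0.10, edgeR adjusted p = 0.0103, or 0.0718 without control D1). In D538G cells it was at 37.6 and 36.5 CPM before and at 28.5 and 31.8 CPM after the same mimic (-0.29 ± 0.10, adjusted p = 0.106, or 0.00806 in the blocked fit). Treated and control libraries did not overlap in either genotype. OCLN is one of the genes whose 3′UTR holds the miR-181c-5p complement printed above. CTNND1, the other, was at 34.1 and 35.7 CPM in WT and at 27.3 and 25.3 CPM in D538G cells with the mimic, and neither change passed (-0.02 ± 0.09 and -0.17 ± 0.12). With the miR-331 mimic, whose seed complement OCLN lacks, OCLN fell in WT cells to 28.0 and 28.2 CPM (-0.31 ± 0.08, adjusted p = 0.0185). That call was lost without control D1 or either treated library (adjusted p 0.0697 to 0.113), and the Y537S value was -0.08 ± 0.16, with the 2 clones on opposite sides of 0. With the miR-301b mimic its values were -0.25 ± 0.11 in WT, -0.11 ± 0.10 in D538G and near 0 in Y537S cells, and none passed. Genes within 1 point of the GC content of OCLN had median changes of -0.37 to -0.15 in the 7 mimic comparisons. In WT cells these medians were -0.18 with miR-181c and -0.17 with miR-331.

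Among the adherens junction genes, CTNNB1 rose with the miR-331 mimic in Y537S cells, from 478 and 466 CPM to 701 and 651 CPM (0.54 ± 0.08, edgeR adjusted p = 0.00859). In WT cells it was at 534 and 551 CPM with the control and 561 and 585 CPM with the mimic (0.10 ± 0.05, adjusted p = 0.188). CDH1 fell slightly with the miR-331 mimic in WT cells, from 1825 and 1754 CPM to 1587 and 1583 CPM (-0.15 ± 0.05, adjusted p = 0.0442), a call that was lost without control D1 or either treated library (adjusted p 0.156 to 0.206). In Y537S cells CDH1 was at 1059 and 1607 CPM with the miR-331 mimic over 946 and 1385 CPM, which passed with the clone as a block (0.22 ± 0.04, adjusted p = 8.12e-05) and not without it (adjusted p = 0.551). The same held with miR-301b in these cells (0.18 ± 0.05 and adjusted p = 0.00276 with the block, 0.713 without) and for CTNNB1 there (0.15 ± 0.05, adjusted p = 0.0199 with the block, 0.293 without). CTNND1 did not pass in any of the 8 comparisons, with or without the block.

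TJP1, DSP and EPCAM were not called for any treatment without the block. TJP1 with the miR-331 mimic in Y537S cells was at 148 and 123 CPM over 198 and 156 CPM (-0.36 ± 0.15, edgeR adjusted p = 0.125) and passed within clones (adjusted p = 1.8e-05). In WT cells TJP1 with this mimic was at 97.6 and 95.1 CPM over 109 and 110 CPM and also passed within clones (-0.16 ± 0.06, adjusted p = 0.0284). DSP with the miR-301b mimic in WT cells was at 2348 and 3129 CPM over 2918 and 3626 CPM (-0.27 ± 0.14, adjusted p = 0.259) and also passed within clones (adjusted p = 6.75e-05), as it did with miR-331 in WT cells (-0.17 ± 0.04, adjusted p = 6.1e-05). Its 2 clones differed more from each other than treated from control libraries. EPCAM was lower with the mimic in 14 of 14 pairs of libraries within clones, by log2 changes of -0.20 to -0.0084. Genes within 1 point of its GC content had medians of -0.12 to -0.081 in the 7 mimic comparisons. The blocked fit called EPCAM in the miR-301b comparisons of Y537S (-0.15 ± 0.06, adjusted p = 0.0247) and D538G cells (-0.17 ± 0.07, adjusted p = 0.0287). When the GC trend was also removed, none of the 10 genes was called lower in these 2 comparisons.

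With the let-7f inhibitor in Y537S cells, CDH1, the only one of the 10 genes with a let-7f-5p seed complement, was at 966 and 1439 CPM over 859 and 1342 CPM with the inhibitor control. The log2 change was 0.12 ± 0.27 without the block (edgeR adjusted p = 1.00) and 0.13 ± 0.03 with it (adjusted p = 0.00644). OCLN, which has no such complement, was at 46.8 and 38.1 CPM over 39.3 and 31.8 CPM, and its blocked change of 0.26 ± 0.07 also passed (adjusted p = 0.0163). CLDN3 and EPCAM were lower within clones (blocked values -0.13 ± 0.04 and -0.13 ± 0.04, adjusted p = 0.0384 and 0.0257).

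A trend with the GC content of transcripts ran through all genes tested. In each of the 7 mimic comparisons, genes with a GC-rich transcript had more positive changes (Pearson r across 14116 to 14423 genes 0.33 to 0.51, with genes not independent of each other). For miR-331 in Y537S, the median log2 change was -0.40 in the 20% of genes with the lowest GC content and 0.50 in the 20% with the highest. For the let-7f inhibitor r was 0.14, and between mutant and WT cells given the mimic control it was 0.017 and 0.041. CLDN3 has the transcript with the highest GC content of the 10 (69.2%), followed by CLDN4 (60.8%) and CLDN7 (56.0%), and OCLN has the lowest (38.8%). The other 6 lie at 44.3% to 48.2%, and the median of all genes is 48.7%. The same direction was seen between the negative controls of Y537S cells, neither of which is a treatment. CLDN3 was 1.33 and 1.31 times as high in the inhibitor control as in the mimic control of clones 1 and 2, CLDN4 1.14 and 1.17 times and CLDN7 1.20 and 1.16 times, while OCLN was at 0.818 and 0.881. Across 12716 genes this difference had a Pearson r of 0.31 with GC content.

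When the trend with GC content was removed from each library, 10 of 80 changes were called, all of them higher. With miR-301b 0 genes were called in Y537S (0.166% of all genes tested), 0 in D538G (1.47%) and 1 in WT cells (5.02%). For miR-331 4 were called in Y537S (19.5%) and 3 in WT cells (7.93%), and for miR-181c 1 in D538G (1.47%) and 1 in WT cells (6.93%). Without the block, CLDN3 passed only with miR-331 in Y537S cells (0.82 ± 0.11, edgeR adjusted p = 0.0158), and its value with miR-331 in WT cells became 0.15 ± 0.06 (adjusted p = 0.156). CLDN4 passed in 5 of 7 mimic comparisons, with 0.60 ± 0.06 for miR-181c in WT (adjusted p = 0.000592), 0.55 ± 0.07 for miR-181c in D538G (adjusted p = 0.0164) and 0.62 ± 0.07 for miR-331 in Y537S cells (adjusted p = 0.0139). CLDN7 kept both miR-331 calls, at 0.68 ± 0.17 in Y537S (adjusted p = 0.0462) and 0.31 ± 0.06 in WT cells (adjusted p = 0.0137). CTNNB1 kept its Y537S call at 0.66 ± 0.09 (adjusted p = 0.0156) and gained one in WT cells at 0.26 ± 0.05 (adjusted p = 0.0157). The OCLN calls were lost, with -0.25 ± 0.09 for miR-181c (adjusted p = 0.149) and -0.09 ± 0.07 for miR-331 in WT cells. When the block for clone was combined with the GC correction, 36 of 80 changes were called, 31 higher and 5 lower. They were 5, 4 and 4 genes with miR-301b in Y537S, D538G and WT cells (28.4%, 17.4% and 16.6% of all genes), 7 and 6 with miR-331 in Y537S and WT cells (52.8% and 20.0%), 3 and 4 with miR-181c in D538G and WT cells (18.5% and 17.8%) and 3 with the let-7f inhibitor (11.3%). In that fit CLDN4 and CTNNB1 were higher in all 7 mimic comparisons, with CTNNB1 changes of 0.13 to 0.66, and CLDN3 in 5. OCLN was higher in 3 comparisons and lower in 1, that of miR-181c in WT cells (-0.25). What gave rise to the trend was not tested.

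**Figure D5:**
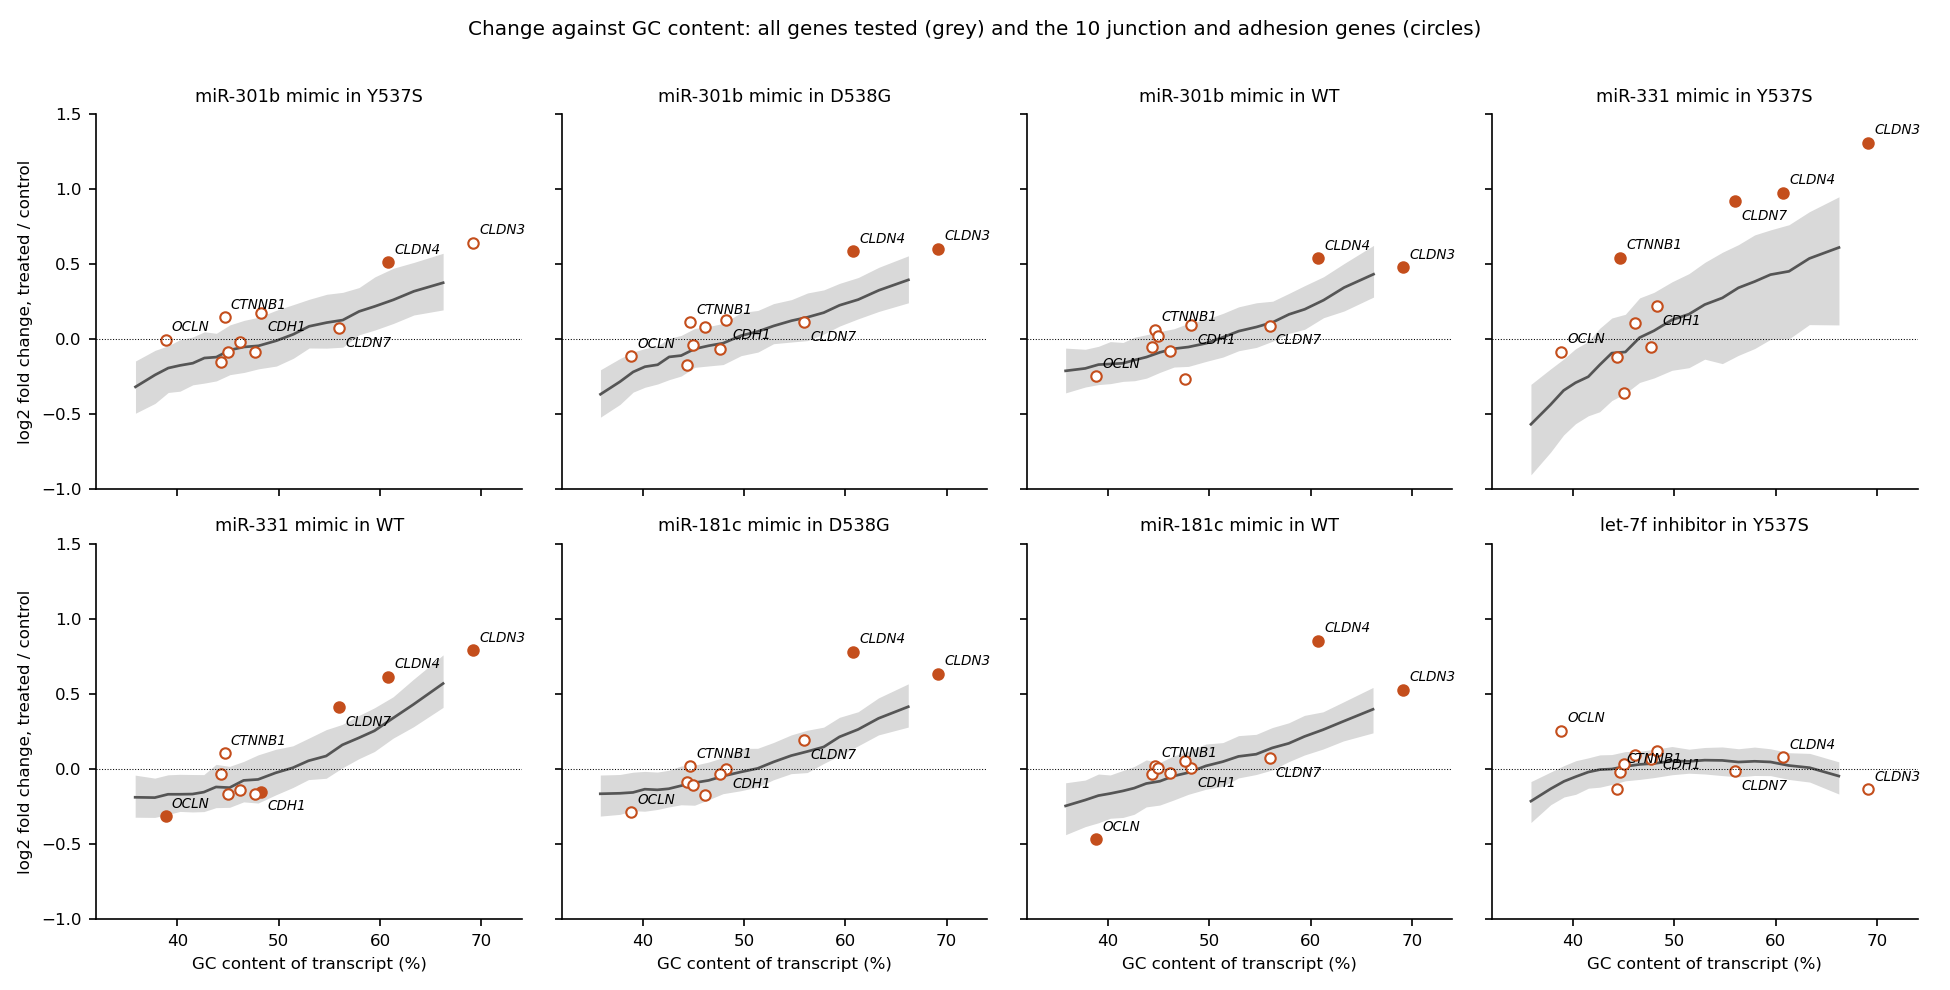
log2 fold change against transcript GC content (%) in the 8 treatment comparisons. The grey line and band are the median and quartiles of all genes tested in 20 bins of GC content, orange circles are the 10 genes, and filled circles passed an edgeR adjusted p under 0.05. The line climbs with GC content in the 7 mimic comparisons, and CLDN4 lies above the band in all of these.

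The third question was whether a mutant responded to a mimic differently from WT cells, tested as the difference of log2 changes. For miR-331 in Y537S against WT cells 1 of the 10 genes was called (9.94% of all genes tested). CTNNB1 changed more in Y537S, by 0.42 ± 0.10 (edgeR adjusted p = 0.0300, and 0.00301 by DESeq2). The clone-level log2 changes of CTNNB1 were 0.55 and 0.48 in Y537S against 0.07 and 0.09 in WT cells. The call was lost in 7 of 8 fits that left out 1 library (adjusted p 0.0664 to 0.155) and after the GC correction (0.37, adjusted p = 0.0750), and without the remaining library, miR-331 clone 2 of Y537S, 4 of the 10 were called. After the GC correction CLDN3 was called in its place (0.66 ± 0.13, adjusted p = 0.0234). With the clone as a block 5 of the 10 were called, beside 34.1% of all genes, and all 5 were more positive in Y537S. They were CTNNB1 (0.42 ± 0.06, adjusted p = 5.02e-06), CLDN3 (0.49 ± 0.08, adjusted p = 1.13e-05), CDH1 (0.35 ± 0.05, adjusted p = 1.3e-05), CLDN7 (0.48 ± 0.09, adjusted p = 0.000164) and CLDN4 (0.35 ± 0.07, adjusted p = 0.000176). Without the block the adjusted p of the other 4 was 0.0576 for CLDN4 (0.0208 by DESeq2), 0.175 for CLDN3, 0.164 for CLDN7 and 0.481 for CDH1.

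The other responses tested against WT were those of Y537S and D538G cells to miR-301b and of D538G cells to miR-181c. Without the block, none of the 10 genes was called by edgeR or DESeq2, and 0 had an unadjusted edgeR p under 0.05. Over all genes 0.00632%, 0.0064% and 0.00646% were called by edgeR. With the clone as a block none of the 10 was called either, and 3, 1 and 0 had an unadjusted p under 0.05. With the block and the GC correction 2 were called for miR-301b in Y537S cells, both higher, beside 181 of 14940 genes tested. In the other 2 responses that fit called 0. The differences of CLDN4 were -0.02 ± 0.10, 0.05 ± 0.12 and -0.07 ± 0.11, and those of CLDN3 were 0.18 ± 0.16, 0.12 ± 0.11 and 0.11 ± 0.12.

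CLDN3 and CLDN4 are neighbours on chromosome 7, 29272 bases apart and on opposite strands. The 13 other genes with a row in the tables that lie within 250 kb of them were looked at after the claudin values were known. Of 11 or 12 tested, none was called with miR-301b in Y537S and D538G cells or with miR-181c in D538G cells (3.57%, 11.8% and 9.52% of all genes tested). In WT cells 1 was higher with miR-301b and 1 with miR-181c (8.5% and 16.4% of all genes). With miR-331, 5 were higher and 2 lower in Y537S and 6 were higher in WT cells, beside 33.0% and 24.8% of all genes called. After the GC correction DNAJC30 alone of the 5 passed (0.49, edgeR adjusted p = 0.0265), the others having 0.0514 to 0.173. The 2 lower ones, MLXIPL and STX1A, passed (adjusted p = 0.0112 and 0.0250). In WT cells the lowest corrected value of the 6 was that of DNAJC30 (adjusted p = 0.0898). The median log2 change of these neighbours was 0.18 to 0.43 in the 7 mimic comparisons, and a difference between them and the claudins was not tested.

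Other junction genes were counted by role. Summed over the 8 treatment comparisons, 13.4% of gene comparisons were called over all genes, 33.2% with the clone as a block and 5.31% with the GC correction. Of 15 further adherens junction genes, 35 of 118 gene comparisons were called, 31 higher and 4 lower, with 69 in the blocked fit and 5 after the GC correction. MLLT4, encoding afadin, which links nectins to actin, fell with the miR-331 mimic in Y537S cells (log2 change -2.23 ± 0.14, edgeR adjusted p = 0.00523), and its difference from the WT change was -1.98 ± 0.14 (adjusted p = 0.000281). PVRL1, encoding the adhesion molecule nectin-1, rose with the miR-301b mimic in all 3 genotypes (0.51 to 0.57) and fell with miR-331 in WT cells (-0.51 ± 0.06, adjusted p = 0.000365). After the GC correction the PVRL1 rise passed in WT cells alone (0.30, adjusted p = 0.0168), and its fall with miR-331 became -0.79 (adjusted p = 0.000172).

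Of 24 further tight junction and polarity genes, 47 of 192 gene comparisons were called, 27 higher and 20 lower, with 94 in the blocked fit and 22 after the GC correction. MPP5, encoding the polarity scaffold PALS1, fell with the miR-181c mimic by 1.17 ± 0.07 in WT (edgeR adjusted p = 3.7e-05) and by 0.83 ± 0.09 in D538G cells (adjusted p = 0.00220) on the log2 scale. CLDN1 rose with the same mimic by 0.99 ± 0.08 in WT (adjusted p = 0.000102) and 0.81 ± 0.07 in D538G cells (adjusted p = 0.00135), and by 0.67 ± 0.06 with miR-331 in WT cells (adjusted p = 0.000136). Unlike those of CLDN3, these CLDN1 values were larger after the GC correction, at 1.16, 0.98 and 0.87. PARD6B, a component of the apical polarity complex, fell with miR-301b in Y537S, D538G and WT cells (-0.80, -0.63 and -0.57), and only the WT call passed after the GC correction (adjusted p = 0.0101).

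Of 14 further desmosome genes, 10 or 11 were tested, and 23 of 87 gene comparisons were called, 20 higher and 3 lower, with 48 in the blocked fit and 1 after the GC correction. PKP3, encoding plakophilin-3, rose with miR-301b in D538G and WT, miR-331 in Y537S and WT and miR-181c in D538G cells, by 0.39 to 0.80, and passed in none of these after the correction. DSC2, encoding a desmosomal cadherin, fell with miR-181c in WT cells (-0.52 ± 0.09, edgeR adjusted p = 0.00333) and did pass (-0.31, adjusted p = 0.0351). Of 16 genes of the epithelial surface and its transcription factors, 38 of 128 gene comparisons were called, 33 higher and 5 lower, with 71 in the blocked fit and 11 after the correction.

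Of 8 listed repressors of junction genes (ZEB, SNAI and TWIST family genes, TCF4 and KLF8), 3 or 4 were tested, and KLF8 alone was called, lower with miR-331 in Y537S cells by -0.83 ± 0.10 (edgeR adjusted p = 0.00643). The blocked fit called 4 of 31 gene comparisons, all lower. Of 12 mesenchymal genes, 6 to 8 were tested in the treatment comparisons and COL1A1 was called, higher with miR-301b and miR-331 in WT cells (0.41 ± 0.08 and 0.33 ± 0.09), neither of which passed after the GC correction. The blocked fit called 15 of 55 gene comparisons of mesenchymal genes, 14 higher and 1 lower. Between genotypes, the repressor KLF8 was lower in Y537S (-0.81 ± 0.08, adjusted p = 0.000633) and D538G cells (-0.40 ± 0.08, adjusted p = 0.00309). In D538G cells 3 of 4 repressors tested were called, 1 higher and 2 lower. Of these only KLF8 reached the mean log2 CPM of 3 required for naming. Of 7 mesenchymal genes tested, 2 were lower in Y537S cells, and 2 were higher and 2 lower in D538G cells. S100A4 and TAGLN, the called mesenchymal genes with the largest changes at a mean log2 CPM of 3 or more, were lower in both. S100A4 differed by -1.74 ± 0.32 in Y537S and -2.33 ± 0.13 in D538G cells (adjusted p = 0.00721 and 5.8e-06). TAGLN differed by -1.12 ± 0.22 and -1.14 ± 0.13 (adjusted p = 0.00910 and 0.000209). The 2 mesenchymal genes that were higher in D538G cells changed less or lay below that level, so the list had no single direction there. Among the tight junction genes CLDN8 was lower in Y537S cells (-1.57 ± 0.23, adjusted p = 0.00295). Of the 16 epithelial surface genes, 9 were lower in Y537S and 4 in D538G cells and none was higher, beside 29.0% and 38.9% of all genes called in either direction.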

How the data were processed

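The 24 RNA-seq libraries were made from poly-A RNA with a strand-marking kit. According to the methods of the study, reads were mapped by the authors with HISAT2 (build hg19), handled with SAMtools and counted over UCSC Known Genes with Subread featureCounts. The deposited values are raw read counts per gene symbol for 26364 genes in 3 tables, one per genotype, and every column of counts belonged to a sample used here (0 columns left over). The strand and multimapping settings of the counting are not given in the sources used here. Column headings of the WT and D538G tables give clone names that the sample labels do not, so those columns were assigned to groups. Some labels write Y573S where the titles give Y537S, and Y537S is used.

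Counts were tested with edgeR 4.0.16 in R 4.3.3 (quasi-likelihood test, TMM factors within each comparison, filterByExpr with a minimum count of 10, Benjamini-Hochberg adjustment over all genes tested, threshold 0.05). The groups compared entered each fit alone, and for the 4 differences between responses the 4 groups concerned. Standard errors are of log2 fold changes. CPM values use TMM factors over the 24 libraries, so that ratios of CPM differ slightly from fitted changes. With 2 libraries against 2, an exact permutation test of a single gene cannot give a p below 0.333, and none was used. The alternatives were DESeq2 1.42.0, RLE factors, no filter, a GC correction (lowess of log2 counts on transcript GC content, span 0.3), leaving out each library, and the clone as a replicate block with and without the GC correction. Libraries of a treatment and its control come from the same clones, as the column headings show, and deviations of the 2 clones from their group means correlated with r of 0.46, 0.15, 0.18, 0.43, 0.12, 0.17, 0.13 and 0.47 across 16383 genes in the 8 treatment comparisons. The fits were tested on simulated data.

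Lengths, GC content, 3′UTRs and coordinates come from a GRCh37 annotation matched by symbol (22494 genes) or older symbol (1363), with 2507 unmatched. Tables were made in Python 3.11.15 with pandas 2.3.3 and numpy 2.4.6, and figures with matplotlib 3.10.9. The 10 genes and the other lists were chosen with earlier results of these data known. All 10 are named in every comparison. From each other list at most 2 called genes per comparison were eligible to be named, those with the largest change whose mean log2 CPM was 3 or more. Some genes of these lists are not reported here by name.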

Additional observations from a re-analysis of the deposited data

Results flagged for a closer look

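The response of CTNNB1 to the miR-331 mimic was called in the test of the difference between genotypes, being 0.42 higher (log2, Y537S minus WT, edgeR adjusted p = 0.0300). It was 1 of the 10 genes, beside 9.94% of all genes tested, so the count is near that share. Both Y537S clones moved further than both WT clones. The GC-corrected difference was 0.37 (adjusted p = 0.0750), and in 7 of 8 fits without 1 library the adjusted p was 0.0664 to 0.155.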

How the results depend on the processing

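Counts of the 10 genes called with the GC correction were 0 for miR-301b in Y537S and 0 in D538G cells, 1 for miR-301b, 3 for miR-331 and 1 for miR-181c in WT cells, and 1 for miR-181c in D538G cells. With the replicate block (the clone) they were 5 for miR-301b in Y537S, 4 for miR-181c in D538G, 4 for the let-7f inhibitor and 5 for the miR-331 response of Y537S against WT cells. With both at once they were 5, 4 and 4 for miR-301b in Y537S, D538G and WT cells. They were 7 for miR-331 in Y537S cells and 3 for the let-7f inhibitor. The shares of all genes called in these fits of the treatments are given above. With both at once 2 and 7 were called for the miR-301b and miR-331 responses of Y537S against WT cells. Over all genes tested, 181 of 14940 and 4488 of 14835 were called for these responses. For miR-301b in Y537S cells DESeq2 and the omission of the filter gave 2 calls each, beside 1732 and 758 of 19972 genes tested. For the miR-331 response DESeq2 and RLE factors gave 2 each, beside 2296 of 20840 and 1705 of 15666 genes tested. The causes were not tested, except that a block compares libraries within a clone by construction.

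Values that turned direction with a call in at least 1 of the fits were CLDN3 with miR-301b in WT cells (-0.017 with the GC correction and -0.017 with the replicate block added to it), and, with both together, OCLN with miR-301b (0.25, adjusted p = 0.0142) and miR-331 (0.32, adjusted p = 0.00155) in Y537S cells and EPCAM with miR-331 in WT cells (0.12, adjusted p = 0.0306). A further 139 values changed sign without a call in either fit.

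Leaving out 1 library gave 0 to 1 calls for miR-301b in Y537S, 2 to 2 in D538G and 2 to 3 in WT cells, 4 to 4 and 3 to 5 for miR-331 in Y537S and WT cells, and 2 to 2 and 2 to 3 for miR-181c in D538G and WT cells. It gave 0 to 0 for the inhibitor, 1 to 7 and 4 to 6 for Y537S and D538G against WT, 0 to 4 for the miR-331 response and 0 to 0 for the other 3 responses. The miR-331 count in WT cells was 3 without control D1 or treated D1. In these fits the group left with 1 library is assumed to vary like the others. The share of all genes called in them is not given, so their counts show only how the calls depend on single libraries. Of the 10 genes' single values, 27 lost and 10 gained a call, and 683 kept their side.

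Over all genes, calls with the GC correction, and with the replicate block, were 24 and 5819 for miR-301b in Y537S (541 in the unblocked fit, 1732 by DESeq2), 208 and 4941 in D538G (1750), 720 and 4269 in WT (1284), 2779 and 9035 for miR-331 in Y537S (4913), 1140 and 5599 in WT (3755), 207 and 4341 for miR-181c in D538G (1412), and 986 and 4173 in WT cells (2452). Without the filter they were 758, 2871, 2639 and 2438 for miR-301b in Y537S, D538G and WT and miR-181c in D538G cells. For the inhibitor 0 became 1694 with the block and 79 by DESeq2, with 786 genes at an unadjusted p under 0.05. For the miR-331 response 1557 became 5345 with the block. No paired analysis of mutant against WT was possible because their clones differ. The lowest count of any of the 10 genes in a library was 875.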
